A study of Mus musculus with 2 samples.

Results

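Transcript levels of 10 genes of mitochondrial protein import were compared between the hypothalamus of Crtc1 knockout mice and that of wild-type mice. The genes were Timm50, Timm23, Timm17a, Timm17b, Timm44, Timm22, Tomm20, Tomm22, Tomm40 and Tomm70a, of 18193 genes that the array's annotation pairs with a probe set alone. They were chosen by function around Timm50, which was itself picked for its lower signal in the knockout pool, so its difference is given as a description. All 26 probe sets paired with one of these symbols alone were used, and no probe set shared a member with another gene. Crtc1 encodes a protein that assists CREB, a transcription factor driven by cAMP, and the study asked about its part in energy balance and fertility.

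The Crtc1 knockout group was 1 Affymetrix array of RNA from 3 males, and the wild-type group was 1 array of RNA from another 3. All animals were 12 weeks old, had fasted for 18 h and had then been refed for 6 h. Equal amounts of total RNA of the 3 mice were mixed before labelling, so each group is a single pooled sample of whole hypothalamus and no test between genotypes is possible. The sources used here give neither the strain nor the design of the allele. In bulk tissue, fewer cells of a type and less RNA per cell cannot be told apart.

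Most mitochondrial proteins are made in the cytosol and carried into the organelle. The TOM complex of the outer membrane is the common entry gate. Behind it, the TIM23 complex of the inner membrane takes up precursors with a cleavable presequence, and the TIM22 complex inserts carrier proteins. Neurons depend on this supply because their synapses draw heavily on mitochondrial ATP.

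Signals are linear units as deposited. Differences are Crtc1 KO minus Crtc1 WT on the log2 scale, after signals below the 30th percentile of an array (20.5 in the KO pool and 20.2 in the WT pool) were set to it. Probe sets were called measured when their log2 signal, averaged over the arrays, reached the median of all probe sets, which corresponds to a signal of 52.3. The only error at hand, called array error here, is the SD of the difference among measured probe sets that share a gene. It ran from 0.32 for the dimmest measured signals to 0.16 for the brightest, and it holds no spread between mice.

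The median signal was 54.4 in the KO pool and 52.2 in the WT pool. The targeted gene bore out the labels, since the brighter Crtc1 probe set read 85.1 in the KO pool against 631 in the WT pool, although where it lies with respect to the mutation is unknown here. Of 16 hypothalamic marker genes 11 were measured, 4 higher and 7 lower, with a median difference of -0.11, while the tanycyte gene Rax was at the floor in both. Among them the feeding peptide gene Cartpt differed by -0.82 and the galanin gene Gal by -0.50, the vasopressin gene Avp by 0.56, the oxytocin gene Oxt by 0.48 and the melanin-concentrating hormone gene Pmch by -0.07. The ratio of 3' to 5' signals was 1.47 in the KO pool and 1.25 in the WT pool for actin, and 0.863 in the KO pool and 0.873 in the WT pool for Gapdh. Median differences were -0.02 for neuron markers, 0.09 for astrocyte markers, -0.05 for oligodendrocyte markers and 0.07 for endothelial markers. For microglia the median was 0.18, 4 of 6 genes lay higher, and the signals summed to 4665 in the KO pool and 4209 in the WT pool. Choroid plexus markers were lower in 7 of 7, with a median of -0.37 and summed signals of 27878 in the KO pool and 30869 in the WT pool. Of 7 striated muscle markers 3 were measured, all higher, with a median of 0.58 and summed signals of 632 in the KO pool and 376 in the WT pool, while Actc1 and Mb were at the floor in both pools. Whether these cells and tissues have a part in the values below was not tested.

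Timm50 stood lower in the knockout pool by both of its measured probe sets. It encodes the subunit of the TIM23 complex that receives presequences in the intermembrane space and passes them to the channel. Probe set 1455456_a_at read 179.8 in the KO pool against 265 in the WT pool, a difference of -0.56 (array error 0.26), which is 1.47-fold lower. Probe set 1459830_at read 42.6 in the KO pool against 110.2 in the WT pool, a difference of -1.37 (array error 0.32), which is 2.59-fold lower. Each difference exceeded its array error, as did those of 27.4% of all measured probe sets with 1 gene, either way. Because Timm50 was picked for its lower signal, this describes the readings and lends them no support. The remaining probe set, 1441819_x_at, was below the floor in both pools, at 3.5 in the KO pool and 12.0 in the WT pool, and gives no difference.

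The readings of Timm50 differed in size as well as in brightness. The mean over the 2 measured probe sets was -0.97, or 1.95-fold lower, and the probe sets lay 0.81 apart. Of the 3100 genes with exactly 2 measured probe sets, 3.71% had readings at least as far apart. The larger reading rests on 1459830_at, whose KO signal of 42.6 is under the limit of 52.3 and which counts as measured through its WT signal. Without it Timm50 differed by -0.56, ranked 194 from the lowest of 11312 measured genes by brightest probe set, and lay just under the 1.5-fold limit used here. Where the probes of either set lie along the transcript was not analysed here.

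The start of Timm50 is shown because the gene has the lowest values of the 10. That of Tomm20 is shown because it holds the same short motif and a second one named below. Whether either motif has a part in any level was not tested. Both windows run from 250 bases before to 50 bases after the annotated start, 5′ to 3′ along the gene, from RefSeq on GRCm38.p6. The Timm50 window is chr7:28311997-28312296 and the Tomm20 window chr8:126945872-126946171, both on the minus strand. Capitals mark TGACG, the core of the cAMP response element that CREB binds, read on either strand (CGTCA on the other), and in Tomm20 also GCGCANGCG, the core of the site of NRF-1, a regulator of nuclear genes for mitochondrial proteins.
Timm50: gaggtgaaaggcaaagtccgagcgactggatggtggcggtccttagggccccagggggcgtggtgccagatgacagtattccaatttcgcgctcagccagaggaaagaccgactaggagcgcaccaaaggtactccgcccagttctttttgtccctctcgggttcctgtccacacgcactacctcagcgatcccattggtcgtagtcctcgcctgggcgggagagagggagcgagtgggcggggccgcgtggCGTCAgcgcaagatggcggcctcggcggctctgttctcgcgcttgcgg
Tomm20: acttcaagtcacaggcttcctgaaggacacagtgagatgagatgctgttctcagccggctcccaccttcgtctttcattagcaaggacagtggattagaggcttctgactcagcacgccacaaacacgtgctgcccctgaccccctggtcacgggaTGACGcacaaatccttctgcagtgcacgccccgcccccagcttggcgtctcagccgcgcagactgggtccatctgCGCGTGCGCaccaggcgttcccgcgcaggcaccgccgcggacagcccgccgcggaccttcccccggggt

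The match in Timm50 begins at base 3 counted from the start, and that in Tomm20 at position -94. The whole palindrome TGACGTCA was in none of the windows of the 10 genes, against 1.79% of all 32851 windows of that length. A gene can have more than 1 window, and the 10 genes have 11. The core TGACG, which any whole palindrome also contains, was in 4 of these 11 windows, against 20.8% of all windows. They belong to Timm50, Timm44, Timm22 and Tomm20. The NRF-1 core was in 1 of the 11 windows (6.25% of all windows), that of Tomm20. CCGGAAG, a core that ETS factors bind, was in 3 of the 11, those of Timm23, Tomm22 and Tomm70a (8.86% of all windows). All motifs were searched on both strands, and a match describes the letters, not binding.

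**Figure D1:**
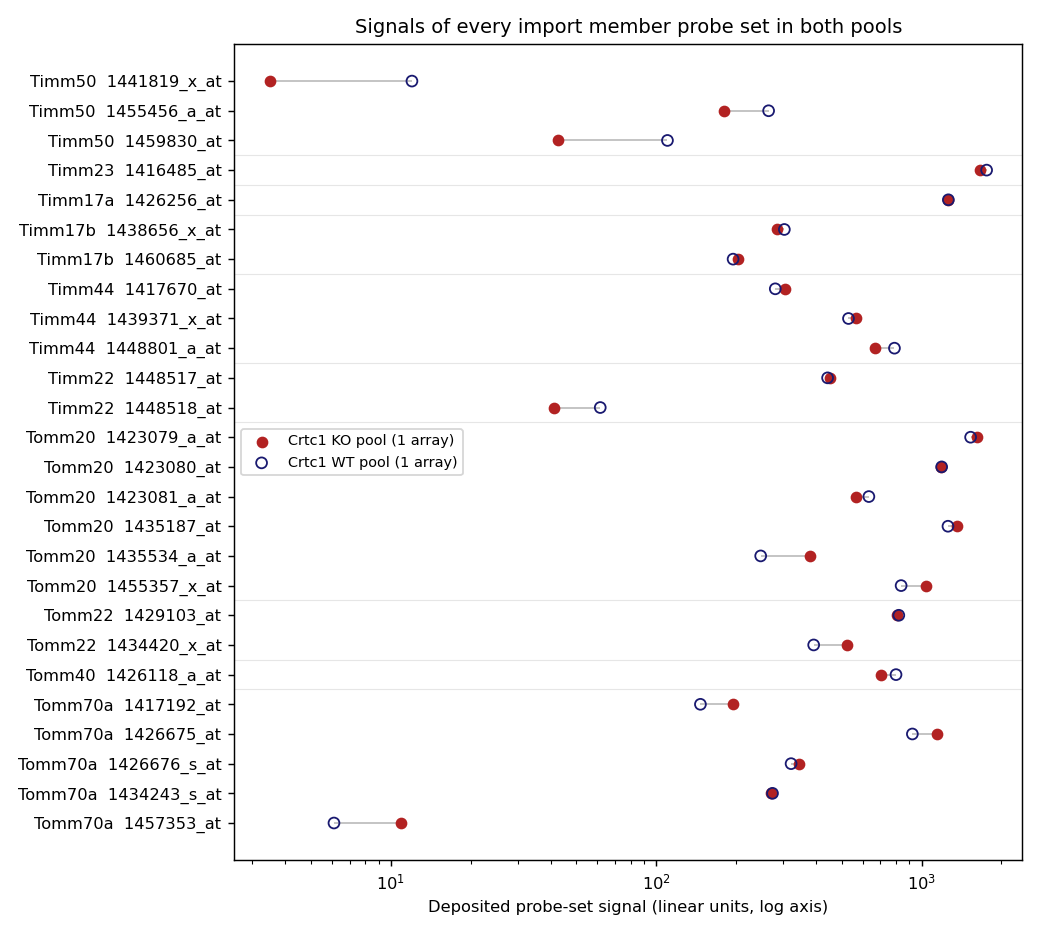
Deposited signal of each of the 26 probe sets of the 10 import genes on a log axis, with filled points for the Crtc1 KO pool and open circles for the Crtc1 WT pool, 1 array each. The points of the pools nearly coincide for Timm23 and Timm17a, and lie furthest apart among measured probe sets for Timm50, at 42.6 in the KO pool and 110.2 in the WT pool.

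The partners of Timm50 in the TIM23 complex were close to equal in the pools. Timm23, which lines the presequence channel, read 1665 in the KO pool and 1758 in the WT pool, a difference of -0.08 (array error 0.16). Timm17a and Timm17b encode alternative forms of the other channel subunit. Timm17a read 1259 in the KO pool and 1261 in the WT pool, the smallest difference of the 10 genes (0.00 after rounding). Timm17b read 285 in the KO pool and 304 in the WT pool by 1438656_x_at, and 203 in the KO pool and 195 in the WT pool by 1460685_at. Its readings differed in sign, at -0.09 and 0.06, and both lay within their array errors.

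Timm44 tethers the Hsp70 motor that pulls presequence proteins into the matrix. Its brightest probe set, 1448801_a_at, read 665 in the KO pool and 790.1 in the WT pool, a difference of -0.25 (array error 0.21). The other readings went the opposite way, with 564 in the KO pool and 530.2 in the WT pool by 1439371_x_at, and 305 in the KO pool and 281 in the WT pool by 1417670_at. These differed by 0.09 and 0.12, and the mean over the 3 probe sets was -0.01, so no direction can be given to Timm44.

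Timm22 forms the core of the carrier translocase, the parallel route through the inner membrane. Probe set 1448517_at read 450.1 in the KO pool and 442 in the WT pool, a difference of 0.03. The dimmer 1448518_at read 41.3 in the KO pool and 61.5 in the WT pool (-0.57, array error 0.32). This reading fell just short of the limit for a measured probe set and does not match the brighter one in direction.

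Tomm20, Tomm22 and Tomm70a encode the receptors of the TOM complex. Tomm20 recognises presequences and had 6 measured probe sets. By the brightest, 1423079_a_at, it read 1611 in the KO pool and 1530.2 in the WT pool (0.07, array error 0.16). By 1435187_at it read 1356 in the KO pool and 1257 in the WT pool, and by 1423080_at 1180.3 in the KO pool and 1190.1 in the WT pool. These 3 bright readings lay between -0.01 and 0.11, each within its array error. The dimmer readings spread further, since 1423081_a_at read 564 in the KO pool and 633 in the WT pool (-0.17), and 1455357_x_at 1040.3 in the KO pool and 837 in the WT pool (0.31). The highest was 1435534_a_at, at 379.6 in the KO pool and 247.5 in the WT pool, a difference of 0.62 (array error 0.23), or 1.53-fold. Over the 6 probe sets the mean was 0.16 and the range 0.78, nearly as wide as that of Timm50, but with both signs.

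Tomm22, the central receptor that also organises the complex, read 810.2 in the KO pool and 820.5 in the WT pool by 1429103_at (-0.02). By 1434420_x_at it read 524 in the KO pool and 392 in the WT pool (0.42, array error 0.23). Only the second of these exceeded its array error.

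Tomm70a, a docking site for chaperone-bound precursors such as carriers, was the member with the highest difference by its brightest probe set. Probe set 1426675_at read 1143 in the KO pool and 923 in the WT pool, a difference of 0.31 (array error 0.16). Probe set 1417192_at read 194.5 in the KO pool and 147 in the WT pool (0.41, array error 0.26). The pools were closer by 1426676_s_at, with 345 in the KO pool and 322 in the WT pool, and by 1434243_s_at, with 272 in the KO pool and 274 in the WT pool. The mean over these 4 was 0.20, or 1.15-fold, with 3 readings higher and 1 lower. The last probe set, 1457353_at, was below the floor in both pools.

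Tomm40, which forms the pore of the TOM complex, had 1 probe set. It read 700.3 in the KO pool and 801 in the WT pool, a difference of -0.19 that lay within its array error of 0.21.

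**Figure D2:**
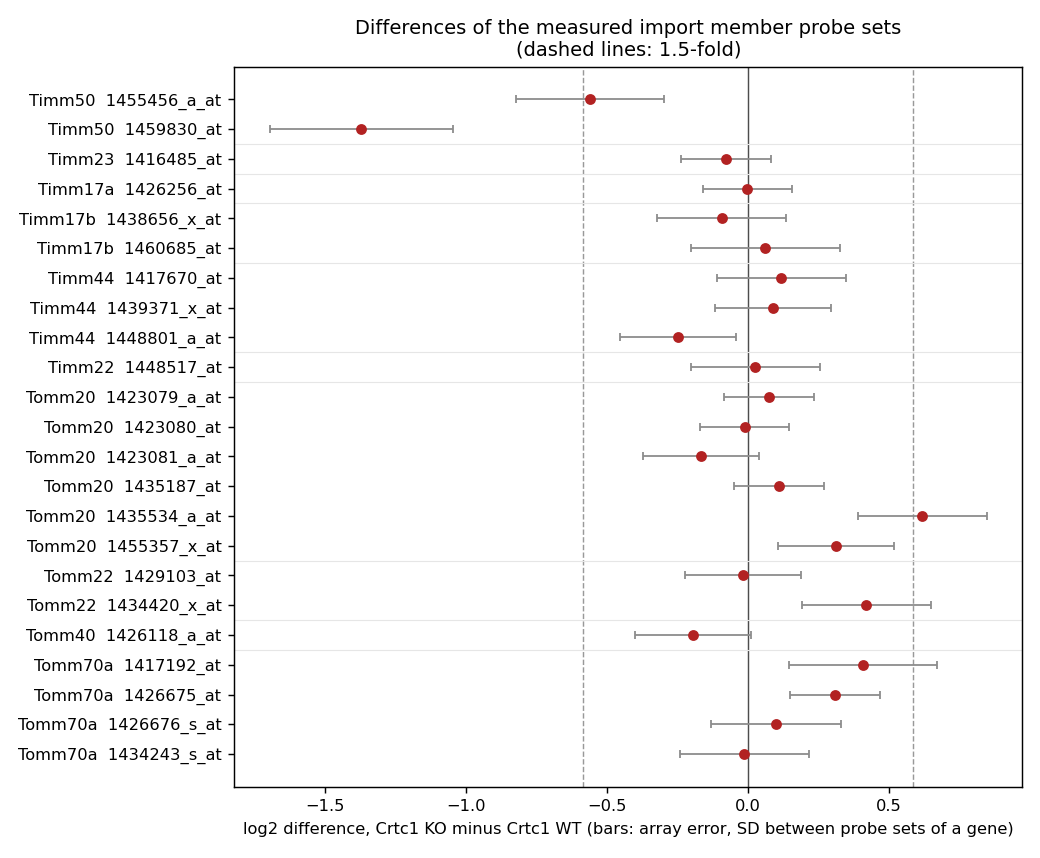
log2 difference, Crtc1 KO minus Crtc1 WT, of the 23 measured probe sets of the import genes, with bars for the array error and dashed lines at 1.5-fold. Both Timm50 readings lie left of 0 beyond their bars, at -0.56 and -1.37, and the readings of the other genes lie between -0.25 and 0.62.

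Across the 9 genes other than Timm50 there was no common direction. Of their 21 measured probe sets 12 were higher and 9 lower in the knockout pool, with a median of 0.06, and 16 lay within 1.2-fold. By brightest probe sets 3 of the 9 genes were higher and 6 lower, with a median of -0.02, beside a median of 0.00 (SD 0.25) for all measured genes. By means of probe sets the median was 0.00 for the 9 genes and 0.01 for all measured genes. Of the 23 measured member probe sets 2 were at least 1.5-fold apart, 1459830_at of Timm50 and 1435534_a_at of Tomm20. Timm50 was picked for its lower signal, so its probe set is not set against the background. Among the 21 probe sets of the 9 genes only 1435534_a_at was as far apart, against 4.44% of all measured probe sets with 1 gene. By brightest probe sets none of the 10 genes was at least 1.5-fold apart, against 3.50% of measured genes, and 8 of the 10 lay within 1.2-fold, against 78.1% of measured genes. Among the 21 probe sets of the 9 genes, 6 exceeded their own array error, 1 of Timm44 lower and 5 of Tomm20, Tomm22 and Tomm70a higher. The same held for 27.4% of all measured probe sets with 1 gene. A share of 6 in 21 is close to that background.

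The readings were also sorted by kind of probe set. The suffix _x_at marks sets with probes resembling other sequences, and _a_at sets that match several transcripts of one gene. Of the 4 measured _x_at sets of the 9 genes 3 were higher, with a median of 0.20, and over all 1152 measured _x_at sets 57.6% were higher, with a median of 0.04. Of the 5 measured _a_at sets of the 9 genes 2 were higher, with a median of -0.17, and over all 2977 the share was 47.0% and the median -0.02. Of the 10 measured plain _at sets of the 9 genes 6 were higher, against 51.3% of all 14309, and of the 2 _s_at sets 1 was higher, against 51.0% of all 1376. With so few sets of each kind, no relation between kind and reading can be drawn. Of the measured Timm50 sets, the plain _at set gave the lower value. The part of probe design in these values was not tested.

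**Figure D3:**
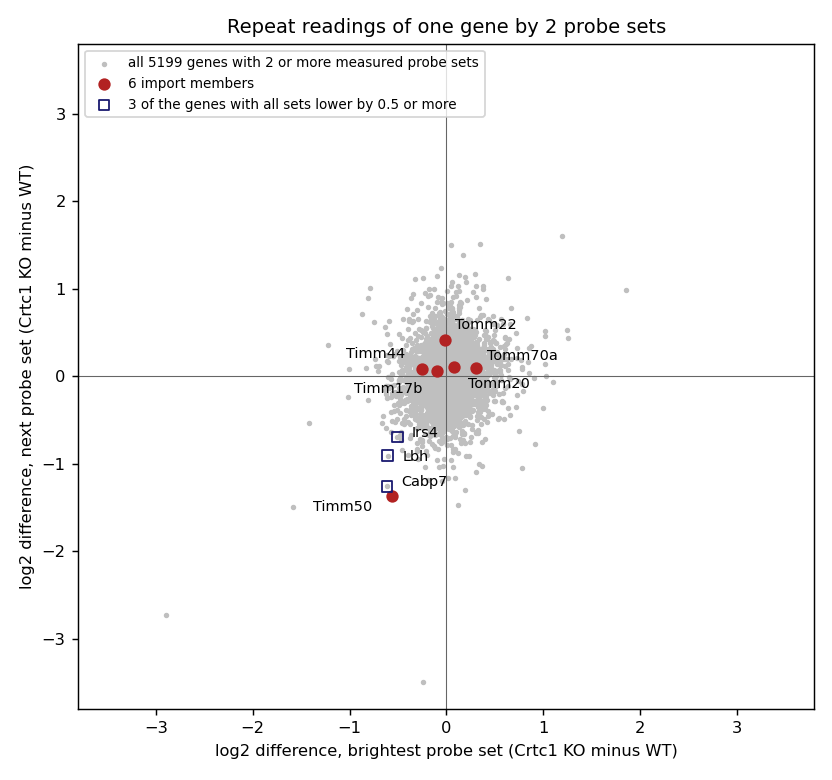
log2 difference, Crtc1 KO minus Crtc1 WT, by the brightest (x) and the next brightest (y) measured probe set of 5199 genes in grey, with the 6 import members that have 2 or more measured probe sets in red and, as open squares, the 3 genes with all sets lower by at least 0.5 whose mean difference is closest to that of Timm50. Timm50 sits at -0.56 and -1.37, and the other 5 members lie near the centre of the cloud.

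Several genes with repeat readings showed a pattern like that of Timm50. Of 5199 genes with 2 or more measured probe sets, 12 had their 2 brightest both lower by at least 0.5, and 12 had both higher by as much. With all measured probe sets counted, 8 genes (0.154%) had every one lower by at least 0.5, Timm50 included. Of the other genes among these 8, the 3 with a mean difference nearest to its -0.97 over the 2 arrays were Cabp7, a calcium-binding protein gene, at -0.94, Lbh, which encodes a transcriptional regulator, at -0.76, and Irs4, an insulin receptor substrate gene of the hypothalamus, at -0.60. Cabp7 read 409 in the KO pool and 626 in the WT pool by its brighter probe set, and 59.8 in the KO pool and 143 in the WT pool by the other. The dimmer measured probe sets of Lbh and Irs4 read 41.4 and 41.2 in the KO pool against 77.5 and 66.7 in the WT pool. As in Timm50, they passed the limit of 52.3 through the WT pool. A further Lbh probe set that was not measured read higher, at 52.7 in the KO pool and 44.7 in the WT pool.

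On lists of 60 further genes, 53 were measured, 20 higher and 33 lower, and their median was -0.04 by brightest probe sets and 0.01 by means of probe sets. None was at least 1.5-fold apart by its brightest probe set, against the 3.50% of all measured genes given above. Timm50 itself also lay under that limit on this measure, and Timm9, at 0.57, differed by as much in the other direction.

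Among further TOM genes 3 of 6 were measured, all lower by brightest probe sets, with a median of -0.04. By means of probe sets their median was 0.06, so the direction depends on that choice. The largest difference by brightest probe set was that of the small subunit gene Tomm7, at -0.15, whose mean over 3 probe sets was 0.06. Tomm40l differed by -0.02 by its brightest probe set and by 0.10 on average, and Tomm34 by -0.04. Of the small TIM chaperones, which guard hydrophobic precursors in the intermembrane space, 3 were higher and 3 lower, with a median of 0.01. Timm9 differed by 0.57 by its brightest probe set, with 113 in the KO pool and 76.3 in the WT pool, but by -0.29 by the other. Timm8b, with 1 probe set, differed by 0.34.

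Of the other inner membrane translocase genes 3 were higher and 1 lower, with a median of 0.04. Timm29, a subunit of the TIM22 complex, differed by 0.44 by its brightest probe set and by 0.13 on average over 2, and Timm21, which links TIM23 to the TOM complex, by 0.02. Romo1, a small subunit of TIM23, differed by 0.06. By brightest probe sets the motor that Timm44 anchors had 1 gene higher and 5 lower, with a median of -0.02. This motor had a median of 0.02 by means of probe sets, so its direction depends on that choice. Its Hsp70, Hspa9, differed by -0.04, its exchange factor Grpel1 by -0.03 and Pam16, which regulates the J protein of the motor, by 0.18.

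Genes of outer membrane assembly and of the MICOS complex, which shapes the cristae, were lower in 9 of 11 by brightest probe sets. Their median was -0.06 on this measure, beside 0.00 for all measured genes, and -0.03 by means of probe sets. The count of lower genes depends on that choice. Immt, the MICOS organiser, had the largest difference, with 629.7 in the KO pool and 842 in the WT pool (-0.42) by its brightest probe set and -0.34 on average over 3. Its other readings were -0.54 by 1429533_at and -0.06 by 1433470_a_at, the latter within its array error of 0.21. Samm50, which inserts barrel proteins into the outer membrane, differed by -0.11 by its brightest probe set but by 0.13 on average over 3. In the disulfide relay of the intermembrane space 1 gene was higher and 2 lower, with a median of -0.11, and Aifm1 differed by 0.36, Gfer by -0.12 and the oxidoreductase gene Chchd4 by -0.11.

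Among peptidases that cut imported precursors 5 of 7 were higher, and the median was 0.06. Pmpca, a subunit of the processing peptidase, differed by 0.20 and Pitrm1, which degrades freed presequences, by 0.18. Inner membrane insertion and upkeep genes had 2 higher and 2 lower, with a median of 0.02, and the insertase gene Oxa1l differed by 0.16. Mitochondrial chaperones and proteases had 3 higher and 6 lower by brightest probe sets, with a median of -0.08. By means of probe sets their median was -0.01. There the chaperonin gene Hspd1 differed by 0.01 and the protease gene Clpp by -0.31 by its brighter probe set and by -0.01 on average.

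Genes that track the amount of mitochondria differed little, with 4 of 10 higher, 6 lower and a median of -0.04. The outer membrane channel gene Vdac2 differed by -0.22, the cytochrome c gene Cycs by 0.29 by its brightest probe set and by 0.01 on average, and the citrate synthase gene Cs by 0.01. The summed signal of the measured probe sets of these 10 genes was 74199 in the KO pool and 75591 in the WT pool.

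**Figure D4:**
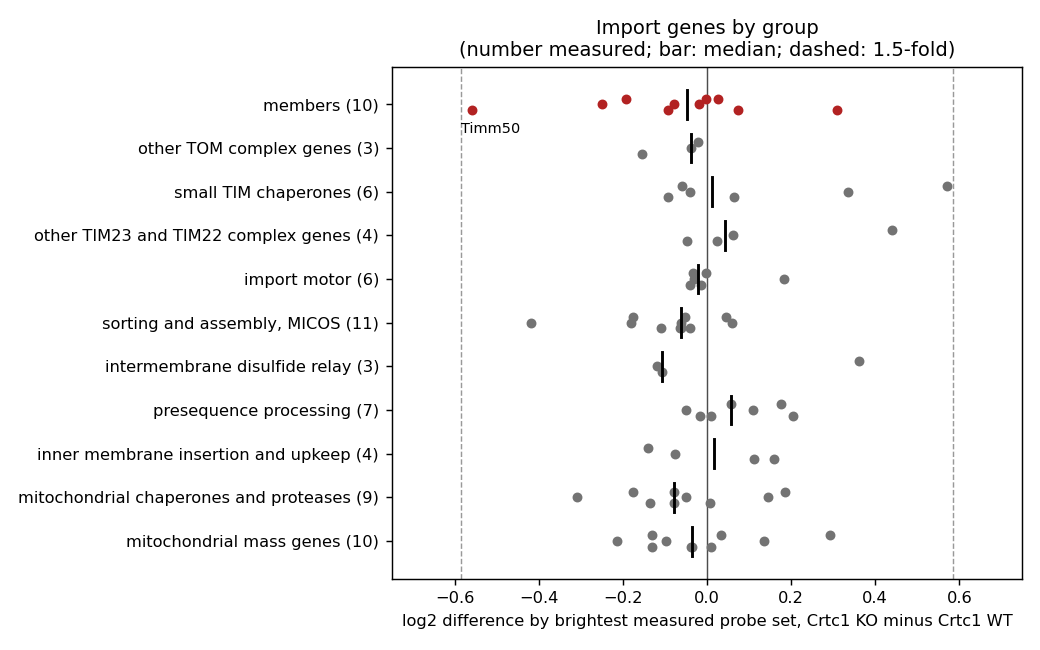
log2 difference, Crtc1 KO minus Crtc1 WT, of each measured gene by its brightest probe set, for the 10 members in red and for the other lists in grey, with bars at the medians and dashed lines at 1.5-fold. Medians lie between -0.11 and 0.06, and Timm50 at -0.56 is the lowest point shown.

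The position of Timm50 in the genome gave no neighbours that were as low. Of the nearest 5 protein-coding genes each way, in the RefSeq order of GRCm38.p6, 7 were measured. Of these 5 were lower and 2 higher, and their median was -0.02. Supt5, an elongation factor gene next to Timm50, read 1335 in the KO pool and 1516 in the WT pool (-0.18, array error 0.16). Dll3, a Notch ligand gene next to it on the other side, read 98.9 in the KO pool and 62.2 in the WT pool (0.67, array error 0.32), or 1.59-fold higher. Dyrk1b, Eid2, Plekhg2, Zfp36 and Med29 differed by -0.23 to 0.18. Neither Timm50 nor Tomm40, both on chromosome 7, shares a chromosome with Crtc1. Timm44 and Tomm20 do, at 410 and 591 protein-coding genes from it on chromosome 8.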

How the data were processed

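The authors deposited 1 linear signal intensity per probe set and array, for 45101 probe sets on 2 arrays. The summarisation algorithm is not stated per the labels' protocols. The mean without the lowest and highest 2% was 200.0 on both arrays, so the deposited values share a common level, by steps that no source here states. Labelling started from 30 ug of total RNA, per the labels' protocols.

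After 64 control probe sets were left out, gene names came from the platform annotation in GEO and were brought up to date through RefSeq (GRCm38.p6). Of the other probe sets 34945 had 1 gene, 932 several and 9160 none, and 22519 counted as measured. A gene took its brightest measured probe set, or the mean of all measured ones where stated. The number of arrays limits the precision. Named were all members, up to 4 genes of each list by size of difference, and genes within 5 of Timm50. The 3 nearest to Timm50 by mean difference were also named, among genes with all measured probe sets lower by at least 0.5. Crtc1 was named as the check of the labels. Outside these rules, Cs, Hspd1, Pmch, Clpb, Rax, Actc1, Mb and Ckm were named by choice, so they do not stand for their lists. Members and lists were chosen with earlier results of these data known. The steps by brightest probe set were tested on simulated data with equal noise at all signals and probe sets of a gene alike in brightness. The data differ from this in both respects. Means of probe sets and the array error of the dimmest signals were not tested in this way. Alternatives were 3 scalings (median, quantile, loess with span 0.3), a floor at percentile 10 or 50, 16 added to each signal as a pseudocount, no filter, a filter at the 70th percentile, means of probe sets, and leaving out _s_at and _x_at sets. Comparison of the member proteins was planned and not run. Python 3.11.15, pandas 2.3.3 and statsmodels 0.14.6 were used.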

Additional observations from a re-analysis of the deposited data

How the results depend on the processing

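Of 483 values recomputed under 10 alternatives, 469 stayed within the array error, or within 1.5 times for counts, and no difference past 1.5-fold changed sign. Other floors and filters leave bright probe sets such as that of Timm23 unchanged, so part of this count was fixed beforehand. Few of the values lay past 1.5-fold to begin with. By brightest probe sets 6 of the 10 members kept their sign in every setting, namely Timm50, Timm23, Timm44, Tomm20, Tomm40 and Tomm70a, while Timm17a, Timm17b, Timm22 and Tomm22, all near 0, did not. The mean of Timm50 was -0.64 with no filter, which lets in its floored probe set, and -0.56 with the filter at the 70th percentile, which leaves 1 probe set. With means of probe sets in place of the brightest, Timm50 was -0.97, Timm44 -0.015 and Tomm22 0.20. Timm50 then passed 1.5-fold, so the count of lower members was 1 and not 0, and it was 1 also with median centring, where its brightest probe set was -0.62. Its dimmer probe set was -1.02 when the floor was the median. Over all genes, 163 were at least 1.5-fold lower and 233 higher (58.8% higher). The counts were 96 lower and 138 higher with a pseudocount, 582 and 719 with no filter, and 46 and 48 with the filter at the 70th percentile. The share of higher genes was 41.9% with median centring, 48.4% with quantile normalization and 48.8% with loess. With 1 array per group no replicate could be left out, and dim signals such as that of 1459830_at have the widest array error.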

Other observations

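Of the measured probe sets of other mitochondrial genes, 2 of 95 on the import lists and 1 of 30 on the list of mitochondrial amount were at least 1.5-fold apart, against 4.44% of all measured probe sets with 1 gene. Letm1, which encodes an ion exchanger of the inner membrane, was lower by all 4 measured probe sets, with a mean of -0.32. The differences were -0.74 (106 in the KO pool and 177 in the WT pool), -0.31, -0.14 and -0.08. Those of -0.14 and -0.08 lay within their array errors of 0.23 and 0.26. How many other genes read 1 way by all their probe sets was not counted. Clpb, a disaggregase gene of mitochondria, differed by -0.62 by a dim probe set (42.6 in the KO pool and 65.3 in the WT pool) and by -0.14 by its brighter one. Slc25a5, which encodes an ATP and ADP carrier, differed by 0.72 by 1438360_x_at and by 0.14 by its brightest of 8 probe sets. No explanation of these values was tested.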
